A study of Homo sapiens with 12 samples.

Results

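The NRF2 and glutathione antioxidant genes are 45 genes that make, spend or recycle the cell's reducing power, chosen by name from the table of gene expression in Huh7 cells. All 45 were among the 60666 genes listed and among the 14394 genes tested, which needed 1 TPM or more in 3 or more of 6 libraries (TPM, transcripts scaled to a fixed library sum and corrected for length). Huh7 is an established human hepatocellular carcinoma cell line. The study compared Huh7 cells carrying a lentiviral shRNA against FAM111B, a gene for a serine protease (shFAM111B, 3 libraries), with control cells carrying a control sequence (3 libraries). Both were selected with puromycin as stable populations and grown in high-glucose DMEM with serum, and no other allele or agent is named for either group. The 6 Hep3B libraries of the series were not analysed here. Nothing in the labels says that the 3 libraries of a group came from separate cultures, so the p-values measure the spread between these libraries, which may be technical.

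NRF2, encoded by NFE2L2, is a transcription factor that KEAP1 holds in the cytoplasm and hands to a ubiquitin ligase for destruction. Oxidants and electrophiles modify KEAP1, NRF2 then accumulates, pairs with a small MAF protein and binds antioxidant response elements near genes for glutathione synthesis, thioredoxin reduction and detoxification. Glutathione is made from cystine taken up by xCT, joined to glutamate by glutamate-cysteine ligase and then to glycine by glutathione synthetase, and glutathione peroxidases and transferases spend it. The liver holds much of the body's glutathione, and mutations that free NRF2 from KEAP1 are known from hepatocellular carcinoma.

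FAM111B itself (ENSG00000189057, chr11:59107185-59127410) stood at 7.84, 8.29 and 7.99 TPM in the control libraries and at 0.96, 1.13 and 0.84 TPM in the shFAM111B libraries, a log2 difference of -2.20 (SE 0.113, limma adjusted p = 6.09e-06). Libraries correlated at 0.9693 to 0.9838 within a group and at 0.8646 to 0.8833 between groups (Pearson, log2 scale, across genes). Genes of the mitochondrial chromosome held 19.7% to 20.2% of all TPM in control and 7.37% to 8.06% in shFAM111B cells, and 5S ribosomal RNA genes were listed at 0 in control and at 1486 to 33059 TPM in shFAM111B cells. TPM are shares of a library, so such shifts move every other value. The median tested gene was 0.36 lower on the log2 scale in shFAM111B cells, and 5 other scalings of the same TPM were therefore run. Hepatocyte and hepatoma markers were all tested, with 27947 to 28518 summed TPM in control and 41574 to 46536 in shFAM111B cells. Of these 10 markers 3 rose (AFP, TTR and APOA1) and 2 fell (APOB and HNF4A) at a fold of at least 2 and P under 0.05. AFP went from 7045 to 7411 TPM in control to 21853 to 25038 TPM in shFAM111B cells. TTR went from 831 to 837 up to 1597 to 1833 TPM and APOA1 from 3154 to 3380 up to 6055 to 7893 TPM. APOB went from 230 to 245 down to 45.7 to 51.5 TPM and HNF4A from 95.7 to 99.6 down to 38.5 to 43.0 TPM. ALB, which stayed under that fold, went from 6419 to 6492 down to 3988 to 4356 TPM. Fibroblast markers summed to 9.58 to 11.8 and 15.1 to 21 TPM, endothelial markers to 1.26 to 2.29 and 2.15 to 3.49 TPM with KDR at 0 in every library, and immune markers to 19.1 to 21.9 and 23.8 to 26 TPM. Bile duct markers summed to 86 to 93 TPM in control and 168 to 204 TPM in shFAM111B cells, KRT19 going from 28.1 to 34.3 up to 145 to 182 TPM and SOX9 from 57.9 to 59.0 down to 21.5 to 22.5 TPM. The part of these shifts in the results was not tested. In bulk RNA, fewer cells with a transcript and less of it per cell cannot be told apart.

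Of the 45 genes, 8 rose and 13 fell at a fold of at least 2 and P under 0.05, against 6.82% of all tested genes higher and 23.7% lower. The other 24 passed in neither direction. At an adjusted p under 0.05 with no fold limit, 19 were higher and 22 lower, against 21.1% and 50.9% of all tested genes, and the libraries of the 2 groups did not overlap for the same numbers of genes, against 22.5% and 52.8%. The median of the 45 was -0.19 on the log2 scale beside -0.36 for all tested genes. Relative to the median tested gene, TXNRD1 differed by -2.93, GCLM by -2.45, NFE2L2 by -0.90, KEAP1 by 0.65, GPX4 by 1.49 and GPX8 by 2.21. The fall was deepest for TXNRD1, GCLM, GCLC, SLC7A11 and GSR, and the rise was largest for GPX8, GPX1, MGST3 and GSTA2. Over the 5 other scalings, 4 genes were called higher each time (GPX1, GPX8, GSTA2 and MGST3) and 6 lower each time (AKR1B10, SLC7A11, GCLC, GCLM, GSR and TXNRD1), while 37 of 45 kept their sign. In the plot of log2 differences by role, all 5 genes of glutathione supply lie left of 0 and 4 of 5 glutathione peroxidases right of it, while the transferases and the thioredoxin group lie on both sides.

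**Figure D1:**
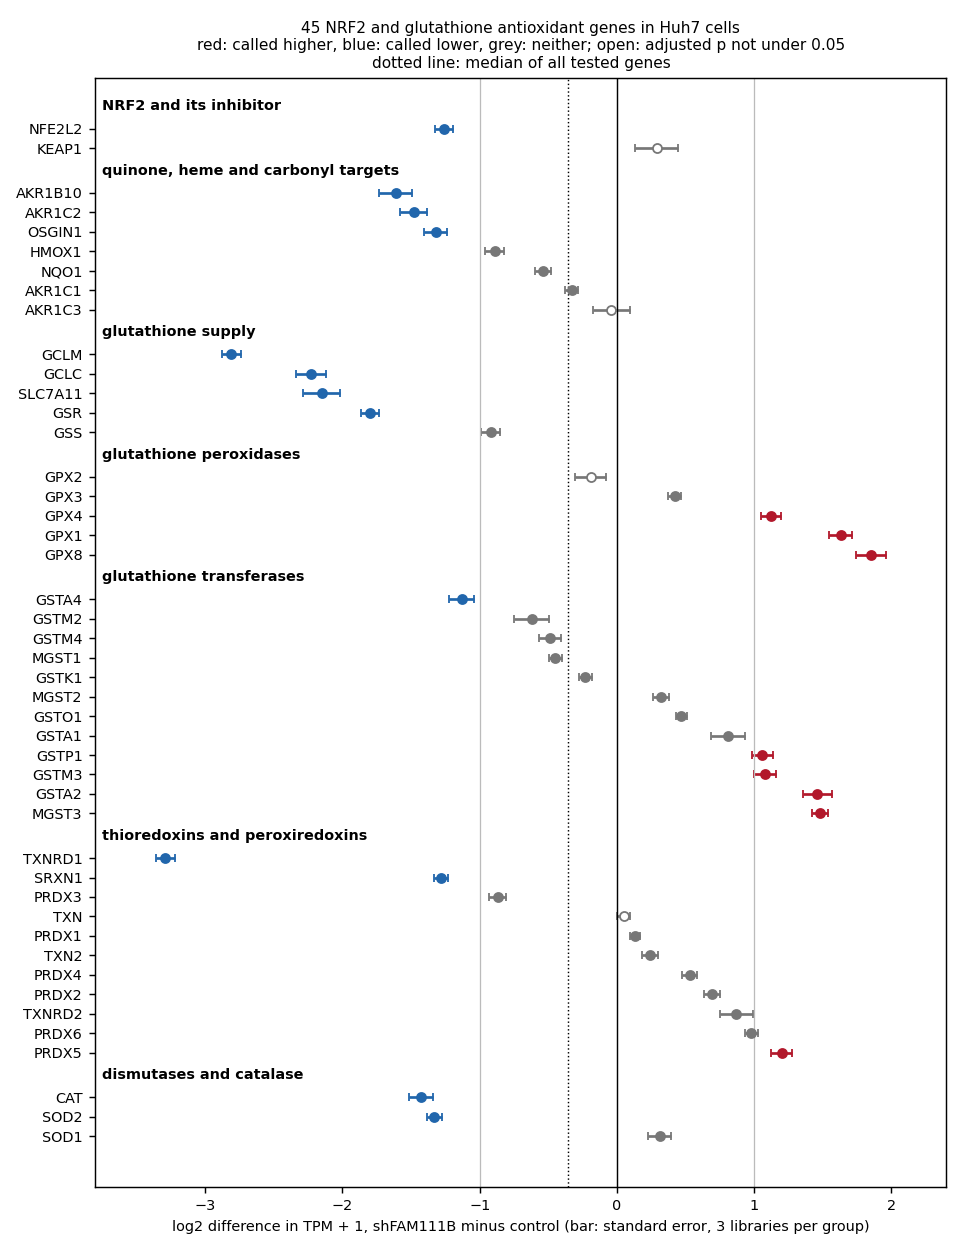
Log2 difference in TPM + 1, shFAM111B minus control, for the 45 genes in 7 role groups (point, fitted difference; bar, standard error; 3 libraries per group). TXNRD1 at -3.29 and GCLM at -2.81 lie furthest left, GPX8 at 1.85 and GPX1 at 1.63 furthest right, and the dotted line marks the median tested gene at -0.36.

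The core of an antioxidant response element, TGACNNNGC, was searched on both strands from 250 bases before to 50 after each start site in the RefSeq promoters (GRCh38.p14). Promoters were available for 35 of the 45 genes, and 8 of the 35 genes (22.9%) held the core, beside 1981 of 10126 tested genes (19.6%). Counted by promoter, since a gene can have several, 9 of 49 (18.4%) held it, beside 4687 of all 35116 promoters (13.3%). By call, the core was found for 3 of 10 genes that fell (TXNRD1, GCLM and GSTA4), 1 of 8 that rose (GSTP1) and 4 of 17 others (GPX2, KEAP1, GSTO1 and MGST1, the last only after the start). A match is a description of letters, and elements further from the start lie outside this window. These stretches are shown because they belong to TXNRD1 and GCLM, which fell deepest, to the most abundant gene that rose and to the inhibitor of NRF2. They can be set beside the values of these genes. Of the other deep falls, GCLC held no core, and the promoters of SLC7A11 and GSR were not among those searched. The stretches run 5′ to 3′ on the strand of the gene with the core in capitals. A core on the opposite strand is shown as its reverse complement.
TXNRD1, chr12:104215670-104215698, 99 to 91 bases before a start and before the annotated gene: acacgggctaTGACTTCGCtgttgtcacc
TXNRD1, chr12:104286920-104286948, 102 to 94 bases before an inner start: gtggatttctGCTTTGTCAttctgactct
GCLM, chr1:93909446-93909474 (minus strand), 34 to 26 bases before the start: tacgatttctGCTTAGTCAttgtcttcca
KEAP1, chr19:10502784-10502812 (minus strand), 31 to 23 bases before the start: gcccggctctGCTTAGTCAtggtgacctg
KEAP1, chr19:10502807-10502835 (minus strand), 54 to 46 bases before the start: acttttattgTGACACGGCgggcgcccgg
GSTP1, chr11:67583736-67583764, 66 to 58 bases before the start: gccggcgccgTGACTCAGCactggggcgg
The KEAP1 and GSTP1 cores and the second TXNRD1 core lie in an exon outside the coding part of the gene in GENCODE 29, and of the 9 bases of the GCLM core 1 lies in an exon and the others before the gene. GCLM, which fell, and KEAP1, which did not pass the test, carry the same 9 letters in capitals, GCTTAGTCA.

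NFE2L2 (ENSG00000116044, chr2:177227595-177392697, minus strand), the gene for NRF2, stood at 147, 148 and 139 TPM in the control libraries and at 60.5, 63.7 and 55.1 TPM in the shFAM111B libraries. All 3 shFAM111B libraries lay below all 3 controls, and the mean fell from 144 ± 4.84 to 59.8 ± 4.33 TPM (SD, n = 3 each). The log2 difference was -1.26 (SE 0.0647, limma adjusted p = 5.97e-06). It ranged from -1.39 to -0.73 over the 5 scalings and was called in 2 of them, so it stayed negative but did not always reach the fold limit. A share of 11% of its 75-base words also occurs in the readthrough gene AC019080.1, which was listed at 2.12 to 2.71 TPM in control and at 1.25, 1.27 and 9.80 TPM in shFAM111B cells. KEAP1 (ENSG00000079999, chr19:10486120-10503741, minus strand), the sensor that targets NRF2 for degradation, was at 73.6, 79.7 and 80.6 TPM in control and 86.4, 80.4 and 124 TPM in shFAM111B cells. Its groups overlapped, and shFAM111B replicate 3 stood well above the others (log2 difference 0.29, SE 0.156, limma adjusted p = 0.137). The ratio of NFE2L2 to KEAP1 within a library, which no scaling factor of the library changes, was 1.99, 1.85 and 1.72 in control and 0.700, 0.792 and 0.443 in shFAM111B cells. NFE2L2 transcripts thus outnumbered KEAP1 transcripts per length in every control library and in no shFAM111B library (two-sided exact permutation p = 0.1, the smallest that 3 against 3 allows). NRF2 is regulated largely at the protein level, which these data do not measure.

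The quinone, heme and carbonyl targets of NRF2 split between 3 that fell and 4 that did not pass the test, with a median of -0.89. NQO1, a quinone reductase often used as a readout of NRF2, stood at 104, 117 and 105 TPM in control and 75.6, 73.2 and 74.3 TPM in shFAM111B cells. Its groups did not overlap, but the difference stayed under the fold limit (-0.54, SE 0.0599, limma adjusted p = 0.000165) and came to -0.00474 with the median subtracted. HMOX1, which breaks down heme, stood at 149, 161 and 149.9 TPM in control and 79.4, 77.7 and 90.3 TPM in shFAM111B cells, a difference of -0.89 (SE 0.0697, limma adjusted p = 3.03e-05) that also missed the fold limit. AKR1B10, a retinal and aldehyde reductase raised in many liver tumours, was at 4.83, 5.28 and 5.14 TPM in control and 0.84, 1.11 and 1.04 TPM in shFAM111B cells. At 19.6% of control it fell furthest in the group (-1.61, SE 0.12, limma adjusted p = 2.42e-05) and was called under all 5 scalings. It lies near 1 TPM in shFAM111B cells, where log2(TPM + 1) understates a change.

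The paired aldo-keto reductases AKR1C1 and AKR1C2, near-identical enzymes that reduce ketosteroids, did not move alike. AKR1C2 went from 177, 187 and 184 TPM in control to 66.1, 56.0 and 74.1 TPM in shFAM111B cells (-1.48, SE 0.0986, limma adjusted p = 1.53e-05), called under 4 of the 5 scalings. AKR1C1 was at 205, 202 and 214 TPM in control and 164, 159 and 169 TPM in shFAM111B cells (-0.33), a sign that turned under 3 of the 5 scalings. The 2 genes share sequence, 21.9% of the 75-base words of AKR1C1 and 30.1% of those of AKR1C2 also occurring in other genes, so the split of reads between them is uncertain. Their sum went from 389.8 ± 8.31 to 229.7 ± 13.9 TPM (SD, n = 3 each), and AKR1C1 over AKR1C2 went from 1.08 to 1.16 in the control libraries to 2.28 to 2.85 in the shFAM111B libraries. AKR1C3, a prostaglandin and androgen reductase, stayed between 1.55 and 2.07 TPM in all 6 libraries. OSGIN1, an oxidative stress-induced growth inhibitor, fell from 42.3, 47.4 and 50.6 TPM to 17.9, 17.2 and 19.2 TPM (-1.32, SE 0.0832, limma adjusted p = 1.24e-05), and was called under 1 of the 5 scalings.

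Glutathione supply was the most uniform group. Of its 5 genes 4 fell, the fifth was lower by less than the fold limit, all 5 were negative under every scaling run, and the median was -2.15. GCLM (ENSG00000023909, chr1:93885205-93909456, minus strand), the modifier subunit of glutamate-cysteine ligase, stood at 64.8, 61.0 and 61.3 TPM in control and 7.64, 7.95 and 8.55 TPM in shFAM111B cells. It kept 12.9% of its control level (-2.81, SE 0.0677, limma adjusted p = 1.38e-06). GCLC (ENSG00000001084, chr6:53497341-53616970, minus strand), the catalytic subunit and rate-limiting enzyme of glutathione synthesis, stood at 29.7, 31.8 and 32.9 TPM in control and 6.13, 6.69 and 5.05 TPM in shFAM111B cells (-2.23, SE 0.107, limma adjusted p = 4.79e-06). The GCLC to GCLM ratio rose within libraries from 0.458 to 0.536 in control to 0.591 to 0.842 in shFAM111B cells, so the modifier subunit lost more than the catalytic one. SLC7A11, the cystine carrier of the xCT exchanger, stood at 13.9, 12.4 and 11.9 TPM in control and 1.76, 2.61 and 1.96 TPM in shFAM111B cells (-2.15, SE 0.135, limma adjusted p = 1.2e-05). All 3 carried through the 5 scalings, the weakest values being -2.28, -1.69 and -1.62.

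The other genes of glutathione supply were lower by smaller amounts. GSR, which turns oxidised glutathione back to its reduced form with NADPH, went from 137, 132 and 127 TPM in control to 36.2, 40.2 and 35.6 TPM in shFAM111B cells, a log2 difference of -1.80. GSS, which adds glycine in the last step of synthesis, went from 105, 113 and 111 TPM to 53.8, 56.8 and 62.5 TPM, a log2 difference of -0.92 that missed the fold limit. Both pairs of groups were apart. Summed over the 5 genes, glutathione supply went from 348 ± 3.6 to 111 ± 4.84 TPM (SD, n = 3 each), a ratio of 0.319. The panels of NRF2 and its best-known targets show how narrow the spread within groups was beside these gaps.

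**Figure D2:**
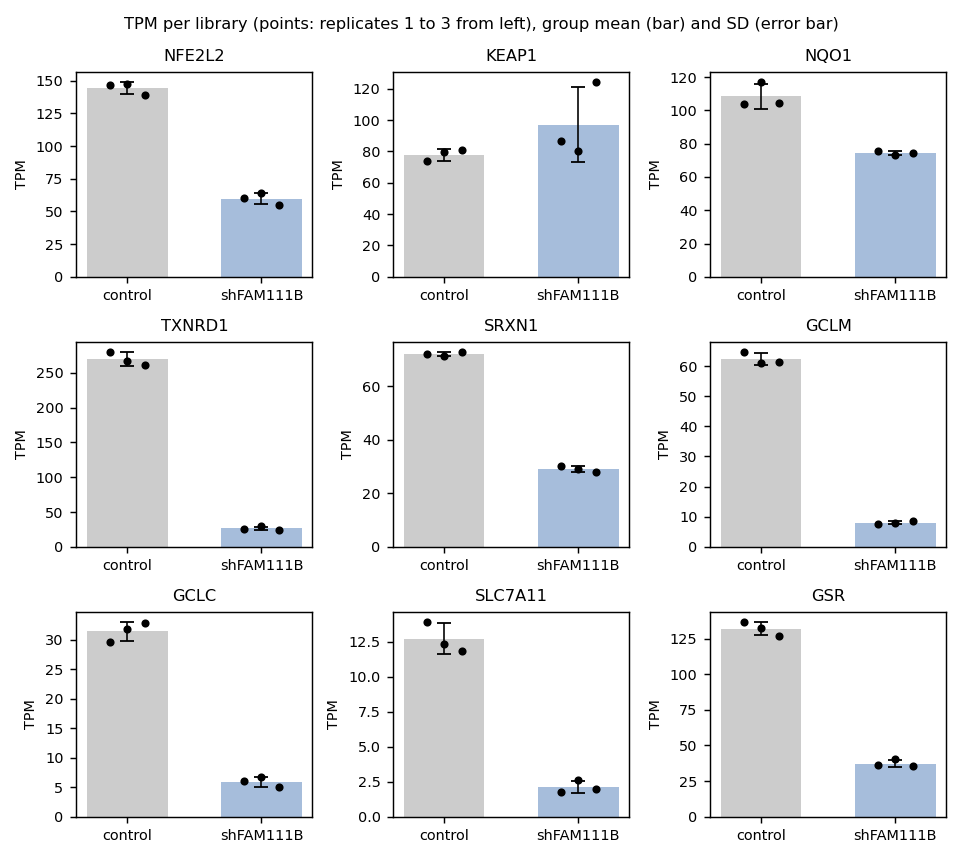
TPM in each of 6 Huh7 libraries for NFE2L2, KEAP1, NQO1, TXNRD1, SRXN1, GCLM, GCLC, SLC7A11 and GSR (points, libraries; bars, group means; error bars, SD; each y axis starts at 0). The groups overlap only for KEAP1, where shFAM111B replicate 3 reaches 124 TPM, and TXNRD1 shows the largest gap, from 262 to 281 TPM down to 24.7 to 29.4 TPM.

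Of 5 glutathione peroxidases 3 rose and 2 passed in neither direction, with a median of 1.12. GPX8, a peroxidase of the endoplasmic reticulum, stood at 5.24, 5.50 and 6.79 TPM in control and 24.9, 23.3 and 22.3 TPM in shFAM111B cells, which was 4.03 times control (1.85, SE 0.107, limma adjusted p = 9.1e-06). GPX1, the abundant cytosolic selenoenzyme (ENSG00000233276, chr3:49357171-49358600, minus strand), stood at 186, 175 and 193 TPM in control and 578, 511 and 631 TPM in shFAM111B cells, 3.11 times control (1.63, SE 0.082, limma adjusted p = 5.61e-06). It shares 8% of its 75-base words with GPX1P1, listed at 11.85 to 17.35 TPM in control and 18.79 to 31.76 TPM in shFAM111B cells. GPX4, which reduces lipid hydroperoxides in membranes and restrains ferroptosis, stood at 621, 645 and 669 TPM in control and 1414, 1279 and 1539 TPM in shFAM111B cells (1.12, SE 0.0719, limma adjusted p = 1.31e-05). The groups were far apart for all 3 genes, but under the 5 scalings GPX4 was called in 3 and ranged from 0.66 to 1.66, whereas GPX1 and GPX8 were called in all 5. GPX3, the secreted plasma form, was at 127.5 to 138 TPM in control and 173 to 182 TPM in shFAM111B cells (0.42). GPX2, the gastrointestinal form, overlapped between groups, at 27.5 to 31.1 and 21.2 to 28.1 TPM. Summed peroxidase TPM went from 996 ± 28.9 to 2209 ± 197 (SD, n = 3 each).

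Glutathione transferases, which couple glutathione to electrophiles, were mixed, with 4 rising, 1 falling and 7 passing in neither direction (median 0.39). MGST3, a microsomal transferase and peroxidase, stood at 66.2, 66.4 and 61.0 TPM in control and 185, 171 and 188 TPM in shFAM111B cells (1.48, SE 0.0595, limma adjusted p = 3.15e-06). GSTA2, an alpha-class liver transferase, stood at 5.88, 7.89 and 6.65 TPM in control and 20.5, 20.3 and 20.1 TPM in shFAM111B cells (1.46, SE 0.107, limma adjusted p = 2.3e-05). Its neighbour GSTA1 was at 7.81 to 9.14 and 13.5 to 18.1 TPM (0.81), and since the 2 genes share 12.1% to 13.7% of their 75-base words the split between them is uncertain. Their sum was 15.1 ± 1.24 TPM in control and 35.7 ± 2.55 TPM in shFAM111B cells (SD, n = 3 each). GSTA4, the alpha-class enzyme for the lipid peroxidation product 4-hydroxynonenal, fell, from 42.6, 38.1 and 40.1 TPM in control to 16.0, 17.8 and 19.8 TPM in shFAM111B cells (-1.13, SE 0.0913, limma adjusted p = 3.44e-05). It was called under 1 of the 5 scalings.

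GSTP1, the pi-class transferase, was the most abundant of the 45 genes per length. It stood at 2191, 2204 and 2354 TPM in control and 4706, 4221 and 5198 TPM in shFAM111B cells, a log2 difference of 1.06 (SE 0.0794, limma adjusted p = 2.5e-05). Its groups were far apart, but the value sat close to the fold limit and came to 0.99 without shFAM111B replicate 3, which ends the call. GSTM3, a mu-class transferase, rose from 42.2, 45.9 and 51.8 TPM to 102, 99.0 and 97.8 TPM (1.08). GSTP1 was called under 3 and GSTM3 under 4 of the 5 scalings. The 7 that passed in neither direction ranged from -0.62 for GSTM2 to 0.81 for GSTA1, with GSTM4 at -0.49, MGST1 at -0.45, GSTK1 at -0.23, MGST2 at 0.32 and GSTO1 at 0.47. GSTM2 and GSTM4 share 14.2% and 10.1% of their 75-base words with other genes, mostly of the same cluster, so their values are uncertain. Summed transferase TPM went from 3699.6 ± 76.6 to 6413 ± 549.8 (SD, n = 3 each), and most of that is GSTP1.

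**Figure D3:**
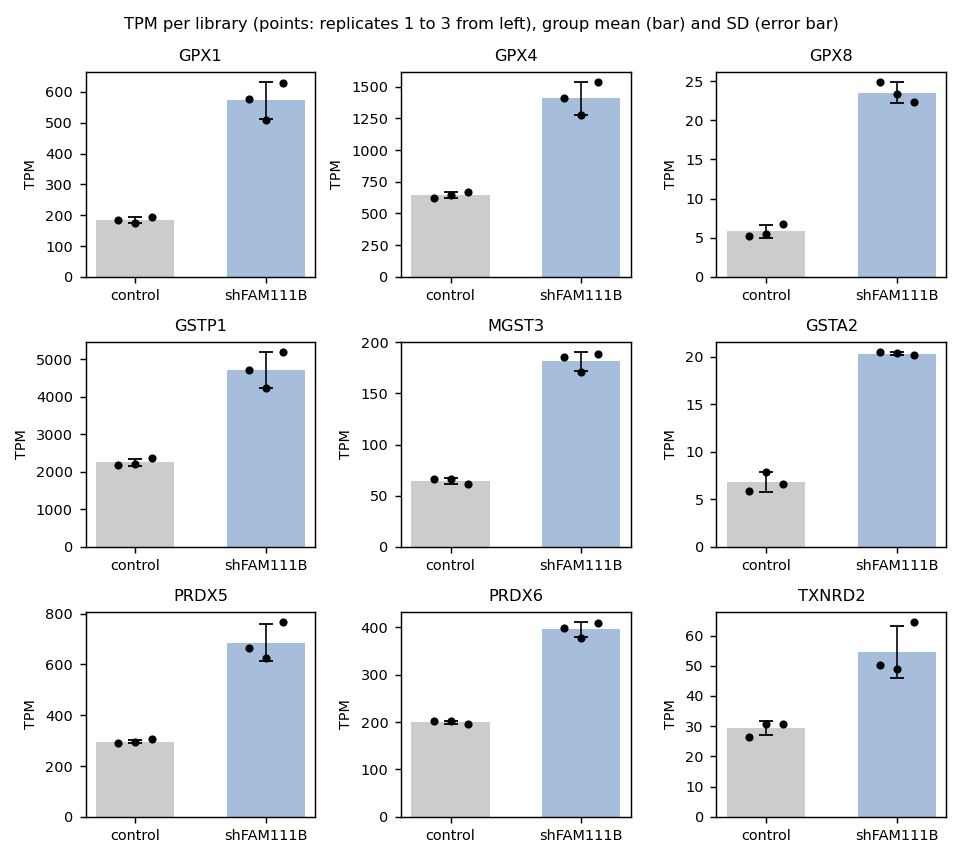
TPM in each of 6 Huh7 libraries for GPX1, GPX4, GPX8, GSTP1, MGST3, GSTA2, PRDX5, PRDX6 and TXNRD2 (points, libraries; bars, group means; error bars, SD; each y axis starts at 0). In every panel the 3 shFAM111B libraries lie above the 3 control libraries, and their SD is larger than that of control in every panel but GSTA2.

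In the thioredoxin system, the reductases of the cytosol and of the mitochondria went apart. TXNRD1 (ENSG00000198431, chr12:104215779-104350305), the cytosolic selenoenzyme that reduces thioredoxin, stood at 281, 268 and 262 TPM in control and 26.2, 29.4 and 24.7 TPM in shFAM111B cells. It kept 9.91% of control, and its difference of -3.29 (SE 0.0715, limma adjusted p = 1.2e-06) was the largest of the 45 genes in either direction. TXNRD2, its mitochondrial counterpart, stood at 26.6, 30.8 and 30.6 TPM in control and 50.3, 48.8 and 64.6 TPM in shFAM111B cells (0.87, SE 0.119, limma adjusted p = 0.000479), apart from control but under the fold limit. Within a library, TXNRD1 over TXNRD2 was 10.6, 8.69 and 8.55 in control and 0.520, 0.602 and 0.383 in shFAM111B cells, so the more abundant reductase transcript per length switched. TXN, the cytosolic thioredoxin that TXNRD1 reduces, was at 828 to 901 TPM in control and 886 to 926 TPM in shFAM111B cells, with overlapping groups. TXN over TXNRD1 accordingly went from 3.24 ± 0.254 to 33.8 ± 3.6 (SD, n = 3 each), with a two-sided exact permutation p = 0.1 for both ratios, the smallest possible.

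SRXN1, sulfiredoxin, which repairs over-oxidised peroxiredoxins, stood at 72.3, 71.3 and 72.9 TPM in control and 30.1, 29.1 and 28.1 TPM in shFAM111B cells (-1.28, SE 0.0515, limma adjusted p = 3.15e-06), and was called under 2 of the 5 scalings. Of its 75-base words 84.6% also occur in the readthrough gene AL121758.1, whose mean was 1.31 TPM in control and 0.973 TPM in shFAM111B cells. The split of reads between SRXN1 and AL121758.1 is therefore uncertain. PRDX5, a peroxiredoxin found in mitochondria and peroxisomes, rose from 290.3, 294 and 305 TPM to 664, 626 and 769 TPM (1.20, SE 0.0773, limma adjusted p = 1.34e-05), called under 4 of the 5 scalings. PRDX3, the mitochondrial peroxiredoxin, was lower, at 389, 375 and 376 TPM in control and 214, 219 and 189 TPM in shFAM111B cells (-0.87), under the fold limit. PRDX5 over PRDX3 therefore went from 0.747 to 0.810 in the control libraries to 2.86 to 4.07 in the shFAM111B libraries. The other peroxiredoxins stayed under the fold limit, PRDX6 at 0.98, PRDX2 at 0.69, PRDX4 at 0.53 and PRDX1 at 0.13, and PRDX1 turned to -0.31 under quantile normalization. TXN2, the mitochondrial thioredoxin, differed by 0.24. In all, the 11 genes of this group gave 1 rise and 2 falls with a median of 0.24.

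The dismutases also went apart. SOD2, the manganese enzyme of mitochondria, stood at 386, 365 and 353 TPM in control and 146, 139.9 and 152 TPM in shFAM111B cells (-1.33, SE 0.053, limma adjusted p = 3.15e-06). Of its 75-base words 5.62% also occur in other genes, 4.56% in another entry named SOD2. CAT, the catalase of peroxisomes, stood at 86.5, 88.5 and 84.5 TPM in control and 30.7, 35.7 and 28.2 TPM in shFAM111B cells (-1.43, SE 0.0872, limma adjusted p = 1.06e-05). SOD1, the copper-zinc enzyme of the cytosol, stood at 295, 313 and 291 TPM in control and 347, 349 and 424 TPM in shFAM111B cells (0.31, SE 0.0843, limma adjusted p = 0.0128). SOD1 was thus on the higher side in each shFAM111B library, and SOD1 over SOD2 went from 0.764 to 0.859 in control to 2.37 to 2.79 in shFAM111B cells. With the trend of differences with transcript length and level removed, SOD1 came to 0.05 (limma adjusted p = 0.613) and SOD2 to -0.59. SOD2 was called under 2 and CAT under 3 of the 5 scalings.

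The difference between groups also moved with transcript length over all tested genes, as the plot against length shows. The median of all tested genes went from 0.43 for genes whose longest transcript has at most 1000 nt to -0.94 for those over 8000 nt, and the share that fell went from 10.6% to 44.7%. Genes of the antioxidant set that rose had a median longest transcript of 1497 nt and those that fell one of 3192 nt, against 3212 nt for all tested genes. Of the 19 antioxidant genes between 1000 and 2000 nt 4 rose and 2 fell, and of the 17 between 2000 and 4000 nt 2 rose and 7 fell. GPX8, MGST3 and GSTM3 rose in length classes whose median was negative, and AKR1B10 and GSTA4 fell in a class whose median was 0.17. With the trend with length and level removed, TXNRD1 stood at -2.83, GCLM at -2.13, GCLC at -1.65, GSR at -1.49 and SLC7A11 at -1.17. GPX8 then stood at 2.35, MGST3 at 1.72 and GPX1 at 1.08, whereas GPX4 came to 0.52, GSTP1 to 0.58, PRDX5 to 0.45 and SOD2 to -0.59, all under the fold limit. TXN, in the shortest class, came to -0.77 and PRDX3 to -0.94. Ratios within a library are free of scaling factors but not of this trend. The gaps behind SOD1 over SOD2, PRDX5 over PRDX3, TXN over TXNRD1, GPX4 over TXNRD1 and GPX1 over TXNRD1 were narrower without it.

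**Figure D4:**
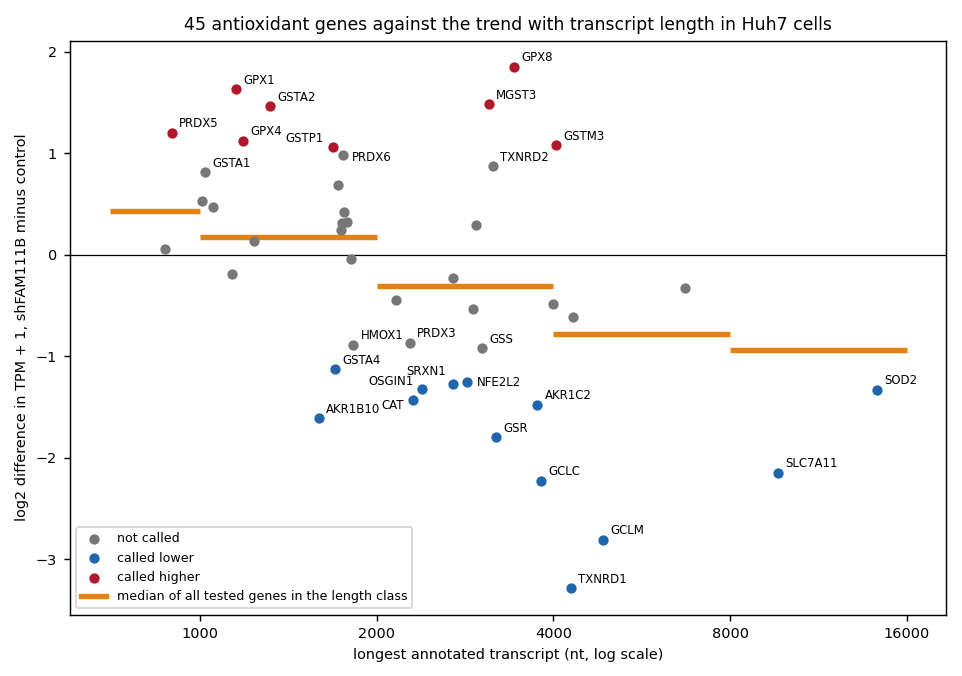
Log2 difference in TPM + 1 (shFAM111B minus control) against the longest annotated transcript in nt (log scale) for the 45 genes, with orange lines for the median of all tested genes in each length class. The lines step from 0.43 for the shortest class to -0.94 for the longest, and TXNRD1, GCLM and GCLC lie well below the line of their class while GPX8 and MGST3 lie above theirs.

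Scaling moved the set up or down, and the plot over scalings gives the range of each gene. With median-of-ratios scaling, 12 of the 45 rose and 7 fell, against 14.1% and 12.5% of all tested genes. Upper-quartile scaling gave 12 and 8, against 13.2% and 13.3%, and quantile normalization 7 and 12, against 11.8% and 12.8%. With the median subtracted 14 rose and 6 fell, against 18% and 9.07%, and with the values rescaled to nuclear protein-coding genes 5 rose and 16 fell, against 6.07% and 29.2%. With the trend with length and level removed 6 rose and 13 fell, against 8.89% and 10.2%. Ranks within the set changed little at the ends, TXNRD1 running from -3.42 to -2.76 and GPX8 from 1.76 to 2.38. The signs of AKR1C1, AKR1C3, GPX2, GSTK1, GSTM4, MGST1, TXN and PRDX1 depended on the scaling, and no direction is read for them.

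**Figure D5:**
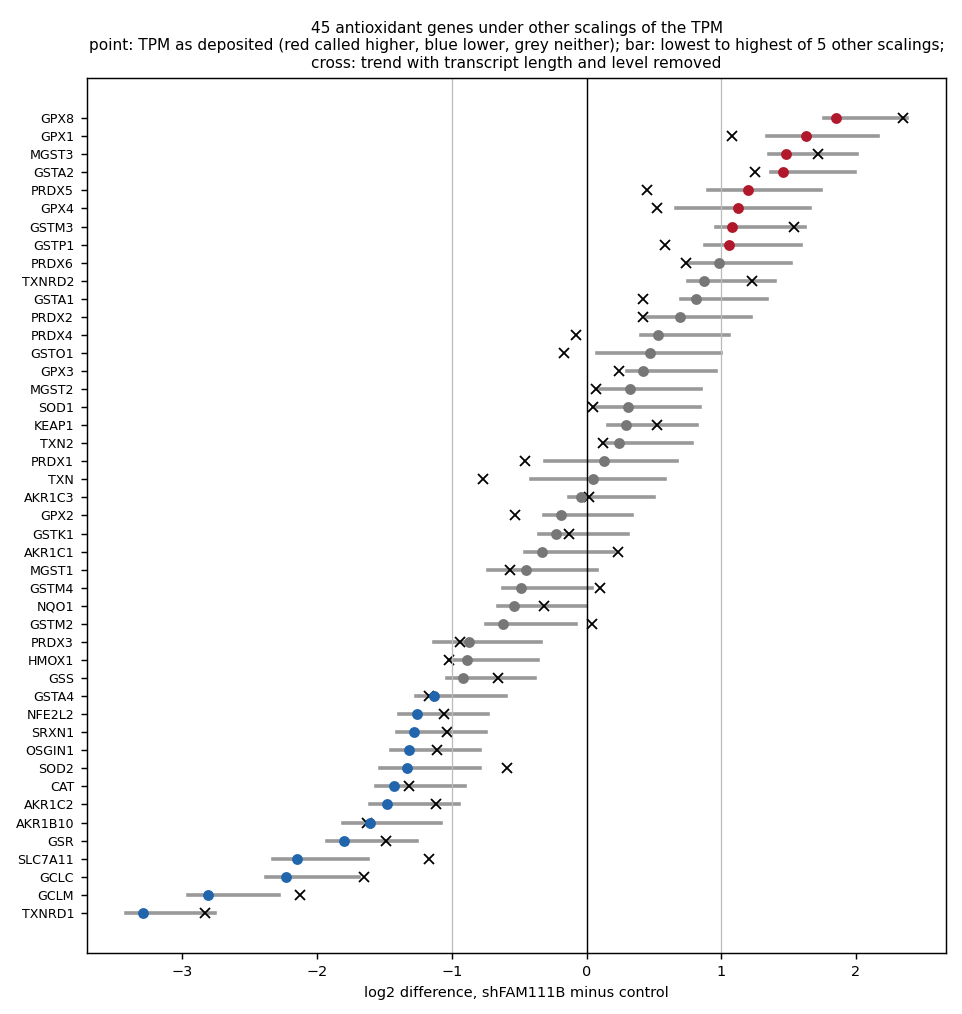
Log2 difference (shFAM111B minus control) of the 45 genes with TPM as deposited (point), the lowest to highest of 5 other scalings (grey bar) and the value with the trend with transcript length and level removed (cross). The bars of the 6 genes from TXNRD1 to AKR1B10 at the bottom stay below -1, and those of GPX8, GPX1, MGST3 and GSTA2 at the top stay above 1.

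Genes around the pathway were taken from 6 lists of 128 names, of which 110 were tested. Of these 6 rose and 27 fell, near the 6.82% higher and 23.7% lower among all tested genes, with a median of -0.37 beside -0.36. The counts of each list are read against the same shares. Among 18 partners and regulators of NRF2, 1 rose and 7 fell, 6 of the 7 under all 5 scalings and 4 with the trend with length and level removed, where CREBBP came to -0.77, BACH2 to -0.84 and CAND1 to -0.17. MAFF, a small MAF protein that pairs with NRF2, fell from 51.6 ± 2.46 to 11 ± 0.802 TPM (SD, n = 3 each; -2.13, SE 0.0759, limma adjusted p = 2.63e-06). BACH1, a repressor that competes with NRF2 for the same elements, fell from 16.7 ± 1.61 to 2.79 ± 0.658 TPM (-2.23, SE 0.147, limma adjusted p = 1.49e-05). A partner and a competitor of NRF2 were thus both lower. MAFK (-1.90), BACH2 (-1.67), NFE2L1 (-1.74), the coactivator CREBBP (-1.77) and CAND1 (-1.09), which exchanges cullin adaptors, fell as well. RBX1, the ring subunit of the ligase that receives NRF2 from KEAP1, rose from 70.8 ± 5.77 to 151 ± 15.4 TPM (1.08), while its cullin CUL3 was at 0.24.

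NADPH, which both GSR and the thioredoxin reductases consume, had its supply genes mostly lower, with 7 of 14 tested falling and a median of -0.95. Malic enzyme ME1 differed by -1.36, the mitochondrial transhydrogenase NNT by -1.64 (19.5 ± 0.991 to 5.59 ± 0.406 TPM) and the mitochondrial NAD kinase NADK2 by -1.52 (81.1 ± 7.31 to 27.6 ± 0.121 TPM). With the trend with length and level removed, 2 of the 7 still fell by the fold limit. The count also moved with the scaling. Of the 14, 4 fell with median-of-ratios scaling, against 12.5% of all tested genes. With the median subtracted 1 fell, against 9.07%, and with nuclear protein-coding genes 8 fell, against 29.2%. Only NNT fell under all 5 scalings, while NADK2 was called under 4 and ME1 under 1 of them. Of 22 genes for breakdown, transport and reuse of glutathione, 1 rose and 3 fell. GGT1, which cleaves glutathione outside the cell, rose from 11.1, 8.42 and 8.97 TPM to 33.2, 30.9 and 50.2 TPM (1.87, SE 0.192, limma adjusted p = 0.000109). GLO1, which clears methylglyoxal with glutathione, fell from 170.1 ± 4.54 to 58.5 ± 2.35 TPM (-1.52), and SLC25A40, a mitochondrial carrier linked to glutathione import, from 15.3 ± 4.16 to 4.16 ± 1.79 TPM (-1.69).

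Of 29 other transferases, peroxidases and redoxins 3 rose and 2 fell (median 0.07). The extracellular dismutase SOD3 (1.19, from 0.94 to 3.44 TPM) and the methionine sulfoxide reductase MSRB2 (1.10) rose, and GSTCD (-1.31) and TXNDC5 (-1.08) fell. These counts depended on the processing. With median-of-ratios scaling 9 rose and 0 fell, against 14.1% and 12.5% of all tested genes. With the length and level trend removed 9 rose and 0 fell, against 8.89% and 10.2%. Rescaled to nuclear protein-coding genes, 1 rose and 4 fell, against 6.07% and 29.2%. GPX1, GPX2, GPX3, GPX4, TXNRD1 and TXNRD2 contain selenocysteine. Of 9 genes listed under selenoprotein synthesis, not all of them synthesis factors, 3 fell and 6 passed in neither direction. Those that fell include SECISBP2 (-1.39), which binds the selenocysteine element of the messenger, and SEPHS1 (-1.23). The related gene SEPHS2 was at -0.37, under the fold limit. All 3 genes that fell dropped under the fold limit with median-of-ratios scaling or with the length and level trend removed. Of 18 other NRF2 targets 1 rose, AKR1B1 (1.00), and 5 fell, led by UGDH, which makes UDP-glucuronate (-2.09, from 85.1 ± 3.22 to 19.2 ± 0.876 TPM), and the fatty aldehyde dehydrogenase ALDH3A2 (-2.04, from 114 ± 4.25 to 27.1 ± 2.57 TPM). The most abundant of them, the ferritin chains FTL and FTH1, ran at 8512 to 8846 and 8845 to 8950.2 TPM in control and at 6304 to 7223 and 10362 to 10991 TPM in shFAM111B cells.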

How the data were processed

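RNA of Huh7 cells, which the study describes as total mRNA, was sequenced from 3 control and 3 shFAM111B libraries, grouped by the labels. The deposited table holds TPM per gene and library, which the authors made with RSEM against hg38 per the submitters' notes. Versions are not given in the sources used here. No counts were used, so depth is unknown and no count test or counting interval is given. TPM sums ran from 978633.78 to 997094.26 per library, and 0 columns of sample values were left unmapped. The authors' fold changes, p-values and group means were not used.

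TPM were taken as log2(TPM + 1), so fold changes of low genes are understated. The 14394 genes that reached 1 TPM in 3 or more libraries were fitted with limma 3.58.1 in R 4.3.3 (trend, moderated), with Benjamini-Hochberg adjustment over all of them. A gene was called at a fold of at least 2 and P under 0.05. Ratios within libraries were compared by a two-sided exact permutation test. The closest libraries had identical TPM for 0.889% of tested genes, so none was counted as a repeat. The fit was checked on simulated data. Alternatives were 5 other scalings (median-of-ratios, upper-quartile, quantile, median subtracted, nuclear protein-coding genes only), a loess trend with length and level removed (span 0.75), other filters, pseudocount and thresholds, a replicate block and each library left out. Scaling was varied because the TPM of all genes share a fixed sum.

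Shared sequence was measured as 75-base words in GENCODE 29 transcripts, to which 58420 of 60666 identifiers matched. Coordinates are from GENCODE 29 (GRCh38). Promoters came from RefSeq (GRCh38.p14). Every one of the 45 genes is named, with values in every library for NFE2L2, KEAP1, NQO1, HMOX1 and up to 3 genes per role group with the largest difference among those with an adjusted p under 0.05 and groups apart. Of each related list, up to 2 genes with the largest rise and 2 with the largest fall among those called were to be named, and the other related genes named were chosen after their values were seen. The 45 genes and the lists were chosen with earlier results of these data known. GSTT1 was not analysed here.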

Additional observations from a re-analysis of the deposited data

How the results depend on the processing

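Of the 45 genes, 8 rose and 13 fell with TPM as deposited. The rises numbered 14 with the median subtracted, 5 with TPM rescaled to nuclear protein-coding genes and 19 at an adjusted p under 0.05 with no fold limit. The falls numbered 7 with median-of-ratios, 8 with upper-quartile scaling, 6 with the median subtracted and 22 with no fold limit. Leaving out each library in turn gave 7 to 9 rises and 13 to 13 falls: GSTP1 (0.99) lost its call without shFAM111B replicate 3, and PRDX6 (1.02) gained one without replicate 2. For the 110 related genes, with 6 rises and 27 falls, the rises numbered 16 with median-of-ratios, 16 with upper-quartile scaling, 11 with quantile normalization, 18 with the median subtracted, 2 with nuclear protein-coding genes, 14 with the trend removed, 30 with no fold limit and 11 when a fold over 1.5 was tested. The falls there numbered 15 with median-of-ratios, 15 with upper-quartile scaling, 11 with the median subtracted, 12 with the trend removed and 59 with no fold limit, and leaving out each library gave 4 to 7 rises and 26 to 29 falls. The sign turned for AKR1C1, AKR1C3, GPX2 and GSTK1 with median-of-ratios (0.12, 0.26, 0.25 and 0.23) and upper-quartile scaling (0.08, 0.23, 0.21 and 0.19). It turned for AKR1C3 (0.22), GPX2 (0.24), GSTM4 (0.01), TXN (-0.41) and PRDX1 (-0.31) with quantile normalization, and for TXN (-0.08) with nuclear protein-coding genes. With the median subtracted it turned for AKR1C1 (0.20), AKR1C3 (0.50), GPX2 (0.34), GSTK1 (0.31), GSTM4 (0.04) and MGST1 (0.08). With the length and level trend removed it turned for AKR1C1 (0.23), AKR1C3 (0.02), GSTM2 (0.04), GSTM4 (0.10), GSTO1 (-0.17), TXN (-0.77), PRDX1 (-0.46) and PRDX4 (-0.08). AKR1C3 ranged from -0.10 to 0.04 with a library left out and stood at 0.08 with only replicate 3 in the shFAM111B group, an alternative chosen after seeing the data. The cause of these changes was not tested. Same-numbered control and shFAM111B libraries did not deviate together (correlations 0.05401, 0.03494 and 0.09078), so the numbers do not pair them, and a fit with the replicate block gave the same counts, 8 rises and 13 falls. No filter, a pseudocount of 0.1 and at least 1 TPM in every library, where AKR1B10 could not be fitted, changed no call of the 45 genes that were fitted. TPM carry no depth, so precision rests on 3 libraries per group.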

Other observations

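Replicate 3 of the shFAM111B group was the highest of its group for 28 of the 45 antioxidant genes (62.2%), beside 5648 of 14394 tested genes (39.2%). Its median log2 gap to the mean of replicates 1 and 2 was 0.08 over the 45 genes and 0.01 over all tested genes. The gap was largest for KEAP1 (0.57), TXNRD2 (0.38), SOD1 (0.28) and AKR1C2 (0.28), and lowest for GCLC (-0.29), CAT (-0.22), PRDX3 (-0.20) and NFE2L2 (-0.17). For every gene called in either direction, replicate 3 still lay on the same side of all 3 control libraries as replicates 1 and 2. The same library held 1486 TPM of 5S ribosomal RNA, against 22970.0 and 33059 TPM in replicates 1 and 2. Genes for small nuclear, nucleolar, ribosomal and miscellaneous RNA held 0.505% of its TPM. They held 4.77% and 7.05% in replicates 1 and 2, and 0.166% to 0.495% in control. The part of this in the gaps was not tested.

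GPX4 and TXNRD1 are both selenoenzymes, and their ratio within a library was 2.21, 2.41 and 2.56 in control and 54.0, 43.5 and 62.2 in shFAM111B cells. That is a log2 difference of 4.46, which no scaling factor of a library changes. The trend with length does change it, as GPX4 came to 0.52 and TXNRD1 to -2.83 with that trend removed. GPX1 over TXNRD1 went from 0.654 to 0.736 in control to 17.4 to 25.5 in shFAM111B cells, and GPX1 came to 1.08 with that trend removed. Both ratios set a gene that rose over the gene that fell deepest, so a large gap follows from the choice. All 45 genes summed to 10484 ± 114 TPM in control and 14148 ± 983 TPM in shFAM111B cells (SD, n = 3 each). Much of that gain lay in GSTP1, whose mean was 2249.6 TPM in control and 4708 TPM in shFAM111B cells, while 24 of the 45 differences were negative.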
